A study of Mus musculus with 27 samples.

Results

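Insulin signalling and glucose uptake were followed through 10 genes: the receptor Insr, the adaptors Irs1, Irs2 and Gab1, the lipid kinase subunit Pik3r1, the kinase Akt2, the Rab regulators Tbc1d1 and Tbc1d4, the glucose transporter Slc2a4 and the hexokinase Hk2. They were taken by gene name and were read by 18 of the 55681 probes of the array, among 35527 gene names in all. Gab1 was chosen from genes that the study had selected on these samples as high in WT, low in Smn1deltaSKM and high again after the cell treatment, as the one with the largest rise. Both its low and its high levels were thus part of the choice, and its values are described and not tested. The samples were 27 single myofibers of the tibialis anterior muscle of mice that the labels put at 3 months of age. The 8 WT myofibers came from 2 mice, the 12 Smn1deltaSKM myofibers from 3 mice and the 7 Smn1deltaSKM+AFS myofibers from 2 mice. In both groups other than WT, exon 7 of the floxed Smn gene was removed by a Cre recombinase driven by the human skeletal actin promoter, which acts in skeletal myofibers and leaves the gene intact in motor neurons and other cells. AFS are c-kit positive, GFP-carrying amniotic fluid stem cells of mouse fetuses that were expanded in culture and injected into the tail vein of Smn1deltaSKM mice. By the study's methods the injected mice were sacrificed about 1 month after injection, while their label still gives 3 months. The questions were what loss of Smn1 from the myofiber, and then AFS cells given to such mice, do to the transcripts of the myofiber.

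Insulin binds its receptor, a tyrosine kinase, which phosphorylates adaptor proteins of the IRS and Gab families. The adaptors recruit phosphoinositide 3-kinase, whose lipid product brings Akt to the membrane, and Akt phosphorylates the Rab GTPase-activating proteins Tbc1d1 and Tbc1d4 and so releases the vesicles that carry the transporter GLUT4, encoded by Slc2a4, to the surface of the muscle fiber. Glucose that enters is trapped by phosphorylation by hexokinase 2, and skeletal muscle takes up most of the glucose that insulin clears from blood after a meal.

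The promoters of the adaptors Irs1, Irs2 and Gab1 are shown because they share a short element that the choice of genes did not use. Of the 8 members in the promoter table, these 3 held TGTTTTG, the core of the insulin response element that FoxO factors bind, in the 150 bases before the transcription start. Irs1 and Irs2 also held CACGTG, an E-box. The sequences are from RefSeq on build GRCm38.p6, both strands were searched, and the motifs are in capitals.
Irs1, chr1:82291440-82291589, minus strand: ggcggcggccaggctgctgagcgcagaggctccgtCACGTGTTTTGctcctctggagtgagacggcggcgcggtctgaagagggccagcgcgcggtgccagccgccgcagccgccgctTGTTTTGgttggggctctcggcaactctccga
Irs2, chr8:11008930-11009079, minus strand: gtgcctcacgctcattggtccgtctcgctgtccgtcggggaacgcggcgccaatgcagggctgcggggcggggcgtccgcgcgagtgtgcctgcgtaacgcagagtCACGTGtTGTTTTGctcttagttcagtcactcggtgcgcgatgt
Gab1, chr8:80880480-80880629, minus strand: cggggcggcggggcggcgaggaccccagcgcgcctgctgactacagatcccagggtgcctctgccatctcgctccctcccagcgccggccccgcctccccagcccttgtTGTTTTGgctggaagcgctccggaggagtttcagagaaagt
In Irs1 the E-box and the first TGTTTTG share bases, and a further TGTTTTG lies nearer the start. Of all 32851 promoters in the table, 2.94% held TGTTTTG in a window of this length, 4.3% held CACGTG and 0.0944% held both. Gab1 has 2 listed start sites and only the one shown held the motif. The motifs were picked after the sequences had been read and a match is not a binding site. No promoter is shown for Insr and Slc2a4.

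Levels are log2 signals of a probe after the 75th percentile of its array was subtracted, so a level of 0 is the level of a probe brighter than 75% of those on the array, and differences are in the same log2 units. Levels of different probes are not compared with each other. Between 23170 and 37580 probes had a value on an array, with a median of 25147.5 in WT, 31411 in Smn1deltaSKM and 27412 in Smn1deltaSKM+AFS. Detection thus differed between the groups, and counts of myofibers with a value for a gene are to be read beside these medians. The deleted gene is read by 2 probes, of which one was 1.68 lower in Smn1deltaSKM than in WT (standard error 0.37, limma over all probes, adjusted p = 0.020) and the other differed by 0.19 (adjusted p = 0.717). All 8 WT arrays were on 1 slide scanned on a day of its own, so that batch and genotype cannot be told apart in any difference from WT. Myofibers 1 to 3 of Smn1deltaSKM mouse 1 were on a slide of their own scanned on an earlier day than the other 9, and stand apart. Myofiber 4 of that mouse was on a slide shared with a treated myofiber, and all 8 of mice 2 and 3 were on another. Mouse 1 and slide thus cannot be told apart within Smn1deltaSKM. Each myofiber of a mouse shares that mouse, so the mice are the replicates, and they were compared with limma over all genes that passed a filter on available values. Of 8 myofiber markers at least 7 had a value on each array, and their summed log2 level had a median of 11.35 in WT, 10.78 in Smn1deltaSKM and 11.07 in Smn1deltaSKM+AFS, with ranges that overlapped. Of these 8 markers 7 had every Smn1deltaSKM mouse below both WT mice, beside 33.5% of all genes, while Mb, the myoglobin gene, lay above. Ckm, the muscle creatine kinase gene, fell by 1.76 (limma, adjusted p = 0.0219), and Ttn differed by -1.77 (adjusted p = 0.0662) and Des by -0.81 (adjusted p = 0.0869). Of 2 satellite cell genes Myf5 had a value on no array and Pax7 had one on 1 array of each group. Of 4 fibroblast genes Pdgfra had a value on no array, but Dcn had one in 1 of 8 WT, 12 of 12 Smn1deltaSKM and 5 of 7 Smn1deltaSKM+AFS myofibers, and Col1a1 in 2, 9 and 5. The summed log2 level of the fibroblast list ran from -1.94 to 5.91 in WT with a median of -0.71, from -1.01 to 4.31 in Smn1deltaSKM with a median of 2.39, and from -1.45 to 4.03 in Smn1deltaSKM+AFS with a median of 3.0. Adipocytes also make Slc2a4, Irs1 and Irs2. Of 6 adipocyte genes 1 to 4 had a value on a WT array and 2 to 6 on a Smn1deltaSKM array, and their summed log2 level ran from -0.56 to 0.83 in WT, from 0.17 to 1.79 in Smn1deltaSKM and from 0.56 to 1.46 in Smn1deltaSKM+AFS. Lep had no value in any WT myofiber and a value in 9 of 12 Smn1deltaSKM and 5 of 7 Smn1deltaSKM+AFS myofibers. Of this list only Plin1 and Retn passed the filter for Smn1deltaSKM minus WT. Plin1 was 0.97 higher and was called (limma, adjusted p = 0.0343), and Retn was 0.66 higher and was not (adjusted p = 0.278). Ptprc, the pan-leukocyte marker, lay between -1.75 and -0.84 in WT and between -0.62 and 0.43 in Smn1deltaSKM, while the summed level of its list overlapped between the groups. Of the same list Cd3e also had every Smn1deltaSKM mouse above WT (0.75), Csf1r had every one below (-0.50) and Itgam overlapped (-0.14). None of these further immune genes was called. Levels of some of these myofiber, fibroblast, adipocyte and leukocyte genes thus differed between the groups alongside the members, and their part in the results was not tested.

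**Figure D1:**
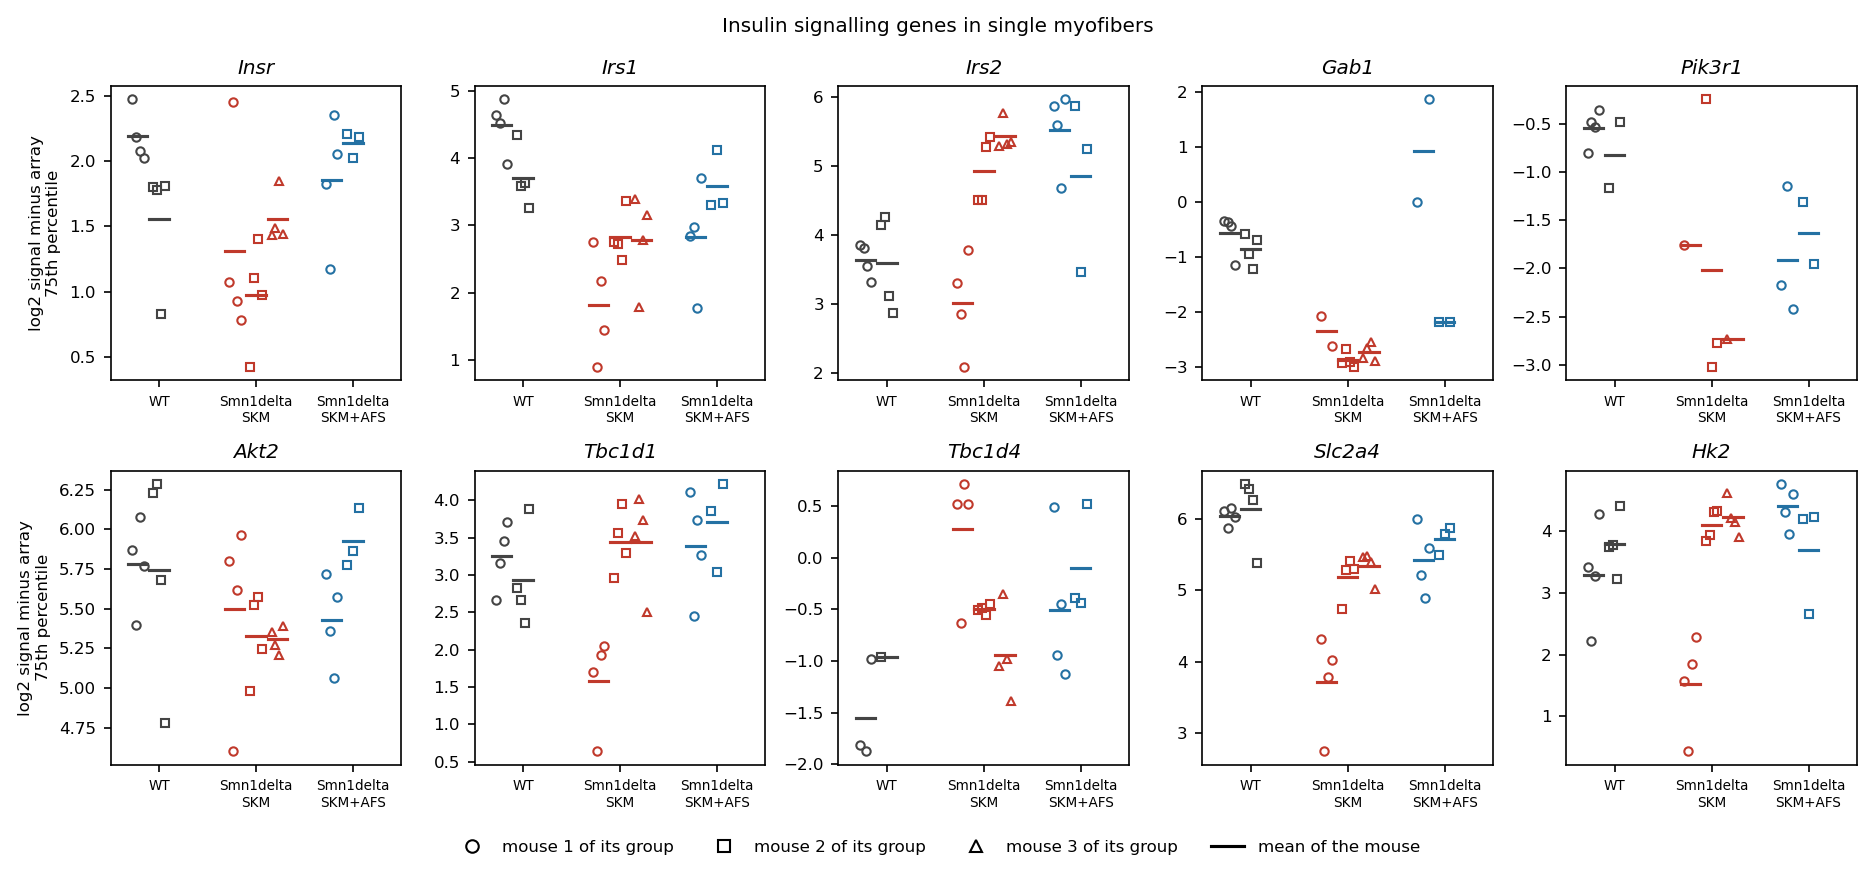
Level of each member in each myofiber, on the log2 scale after subtraction of the array's 75th percentile, with 1 point per myofiber and a bar at the mean of each mouse. Irs1, Gab1 and Slc2a4 lie lowest in Smn1deltaSKM, and the Gab1 values of the Smn1deltaSKM+AFS mice split into a high and a low pair.

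In Smn1deltaSKM myofibers the adaptor Irs1 was about 3-fold lower than in WT, the only one of the 8 tested members called at an adjusted p under 0.05. Of the other members, Gab1 was not tested and Pik3r1 did not pass the filter. The transporter Slc2a4 was 2.54-fold lower in the mean but was not called. Over all 17049 genes tested, 21.6% were called, 7.67% as higher and 13.9% as lower, so 1 called member of 8 is no more than the background. Of the 8 members, 6 had a mean below WT and 2 above, with a median difference of -0.33, against 55.3% of all genes below and a median of -0.13. Before adjustment 2 of the 8 had a p under 0.05, beside 39.1% of all genes. The mice of the groups did not overlap for 5 of the 8, beside 55.3% of all genes, and for 4 of these all Smn1deltaSKM mice were below, beside 33.5%.

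Insr, the insulin receptor, lay between 0.83 and 2.47 in the WT myofibers, with a median of 1.92. In Smn1deltaSKM it lay between 0.43 and 2.45, with a median of 1.25. The myofibers of the groups overlapped, although all 3 Smn1deltaSKM mice (1.31, 0.98 and 1.55) were below both WT mice (2.19 and 1.56), the nearest of them by far less than the spread between myofibers. The mean difference was -0.59 (standard error 0.31, 95% interval -1.31 to 0.13, limma, adjusted p = 0.196) for the brightest probe, at chr8:3154024-3154083 of build mm9 on the minus strand. The other probes of Insr differed by -0.58 and by -1.24 (adjusted p = 0.182 and 0.055 over all probes), so that all 3 pointed the same way and none was called.

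Irs1, a main adaptor of the insulin receptor in muscle, lay between 3.26 and 4.87 in WT with a median of 4.13. In Smn1deltaSKM it lay between 0.90 and 3.39 with a median of 2.74, and 10 of the 12 myofibers were below every WT myofiber. The mice stood at 4.49 and 3.71 in WT and at 1.81, 2.83 and 2.78 in Smn1deltaSKM. The difference between the means was -1.62, or 3.08-fold lower (standard error 0.43, 95% interval -2.60 to -0.64, limma, adjusted p = 0.0331). The probe lies at chr1:82229692-82229751 on the minus strand of mm9, and a further Irs1 probe at chr1:82233564-82233623 fell by 2.21 (standard error 0.56, limma over all probes, adjusted p = 0.029), in a fit that called 21.3% of all probes. The mice of the second probe were also apart, with 4.19 and 2.69 in WT against 0.31, 1.5 and 1.88. Irs1 was lower under every alternative tried, but it was called under only some of them. The call was lost when slide entered as a random effect (-2.21, adjusted p = 0.123), with normexp background correction (-1.19, adjusted p = 0.0741), quantile normalization (-1.36, adjusted p = 0.0859), median centring (-1.41, adjusted p = 0.0591) or the authors' values (-1.34, adjusted p = 0.0838), and with no filter on available values (adjusted p = 0.0511). It was also lost without either WT mouse (adjusted p = 0.253 and 0.0914) and without Smn1deltaSKM mouse 2 or 3 (adjusted p = 0.0571 and 0.0584).

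Irs2, the other main IRS adaptor, moved unevenly among the mice. It lay between 2.87 and 4.26 in WT with a median of 3.68, and between 2.09 and 5.77 in Smn1deltaSKM with a median of 4.89. All 8 myofibers of Smn1deltaSKM mice 2 and 3 were above every WT myofiber, whereas the 4 myofibers of mouse 1 stood at 3.30, 2.85, 2.09 and 3.78, within or below the WT range. The mouse means were 3.63 and 3.6 in WT and 3.01, 4.93 and 5.43 in Smn1deltaSKM. The mean difference was 0.84 (standard error 0.64, limma, adjusted p = 0.358), and without mouse 1 it was 1.57 and was called (adjusted p = 0.0070). The fit without mouse 1 called 7462 of all genes, beside 3678 with every mouse.

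Gab1, an adaptor that binds phosphoinositide 3-kinase and the phosphatase SHP2 downstream of several receptors, is read by 1 probe at chr8:83289342-83289401 of mm9. It had values between -1.22 and -0.34 in all 8 WT myofibers, with a median of -0.64. In Smn1deltaSKM 10 of 12 myofibers had a value, between -3.0 and -2.08, with a median of -2.76, and each was below every WT value. The mouse means were -0.58 and -0.86 in WT and -2.35, -2.89 and -2.74 in Smn1deltaSKM, a difference of -1.94 or 3.83-fold. With normexp background correction, which pulls dim signals together, it was -0.90.

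Pik3r1, the regulatory subunit that couples the kinase to the adaptors, was too dim for the filter, with values in 6 of 8 WT, 5 of 12 Smn1deltaSKM and 5 of 7 Smn1deltaSKM+AFS myofibers. The WT values lay between -1.16 and -0.36. In Smn1deltaSKM they lay between -3.02 and -0.25, with a median of -2.73. With the measured signal kept on every array, also where it was not well above the background, the difference was -1.94 (standard error 0.50, limma, adjusted p = 0.035). Keeping the signal also raised the number of all genes called above the 3678 of the main fit.

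Akt2, the Akt kinase of insulin-responsive tissues, differed little. It lay between 4.78 and 6.29 in WT with a median of 5.82 and between 4.60 and 5.96 in Smn1deltaSKM with a median of 5.37. The mice were at 5.78 and 5.74 against 5.50, 5.33 and 5.31, a difference of -0.38 (standard error 0.27, 95% interval -1.0 to 0.23, limma, adjusted p = 0.316). A second probe differed by -0.49 and the last by 0.49, neither of them called.

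Tbc1d1 and Tbc1d4 hold back GLUT4 vesicles until Akt or AMPK phosphorylates them. Tbc1d1 lay between 2.36 and 3.89 in WT and between 0.64 and 4.02 in Smn1deltaSKM, and its mice stood at 3.25 and 2.93 against 1.58, 3.44 and 3.45. As for Irs2, the low values were those of mouse 1. The difference of -0.27 (standard error 0.55, limma, adjusted p = 0.741) became 0.35 without mouse 1. A second probe of Tbc1d1 differed by -0.46 (adjusted p = 0.391 over all probes) and the last by 1.19 (standard error 0.75, adjusted p = 0.269), so the probes did not share a direction. Tbc1d4, also called AS160, was the member whose 3 Smn1deltaSKM mice (0.28, -0.50 and -0.94) all lay above the WT mice (-1.55 and -0.96). Only 4 of 8 WT myofibers had a value for it, between -1.87 and -0.96, while those of Smn1deltaSKM lay between -1.38 and 0.71. The difference was 0.87 (standard error 0.40, limma, adjusted p = 0.144), and Smn1deltaSKM mouse 3 and WT mouse 2, which had a value in 1 myofiber, were nearly level. With the measured signal kept on every array, also where it was not well above the background, the difference was 1.68 and was called (standard error 0.43, limma, adjusted p = 0.0336). Keeping the signal also raised the number of all genes called above the 3678 of the main fit. Another probe of Tbc1d4 did not pass the filter and did not share the call of the first probe. Its mice overlapped, with -0.88 and -1.06 in WT beside 0.16, -1.03 and -2.20 in Smn1deltaSKM. When its signal was kept in the same way, limma gave a rise of only 0.42, smaller than its standard error of 0.63 (adjusted p = 0.653).

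Slc2a4, whose product GLUT4 is the insulin-responsive glucose transporter, was printed as 10 spots on each array and was therefore measured more often than any other member. It lay between 5.38 and 6.49 in WT with a median of 6.14 and between 2.74 and 5.48 in Smn1deltaSKM with a median of 5.15, and 8 of 12 Smn1deltaSKM myofibers were below every WT myofiber. The mice were at 6.04 and 6.14 in WT, and at 3.72, 5.19 and 5.34 in Smn1deltaSKM. The difference was -1.35 (standard error 0.47, 95% interval -2.43 to -0.26, limma, adjusted p = 0.0738). Mouse 1 carried the largest fall, with 4.31, 2.74, 3.78 and 4.03 in its 4 myofibers. Without this mouse the difference was smaller, at -0.83, but the spread was too, and Slc2a4 was called (adjusted p = 0.0240). The fit without it called 7462 of all genes, beside 3678 with every mouse. The probe lies at chr11:69756073-69756132 on the minus strand of mm9.

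Hk2, the hexokinase that phosphorylates the glucose that GLUT4 brings in, showed no common direction. It lay between 2.22 and 4.41 in WT with a median of 3.59. In Smn1deltaSKM the 4 myofibers of mouse 1 stood at 1.57, 0.43, 1.85 and 2.28, and the highest of the others reached 4.62. The mice were at 3.30 and 3.79 in WT and at 1.53, 4.11 and 4.22 in Smn1deltaSKM, a difference of -0.26 (standard error 0.75, 95% interval -1.97 to 1.46, limma, adjusted p = 0.823) that became 0.62 without mouse 1.

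**Figure D2:**
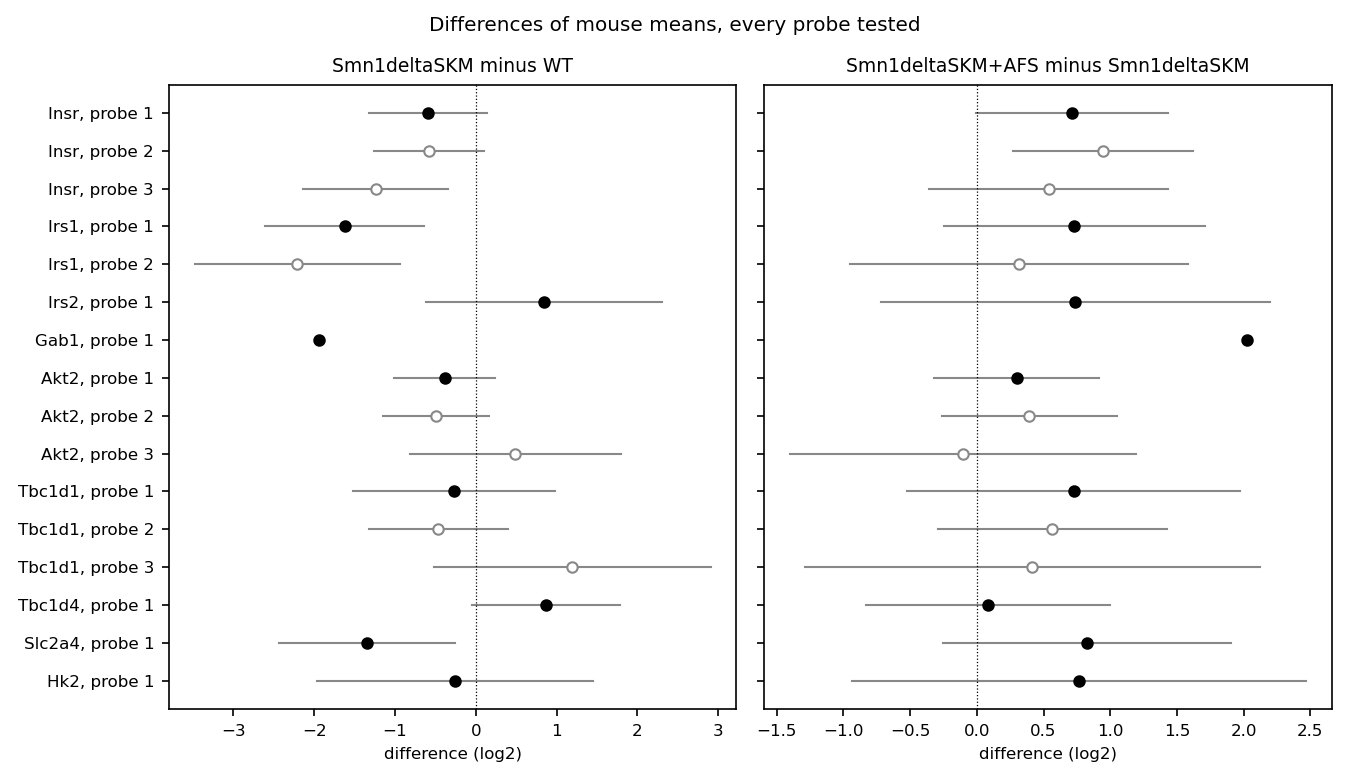
Log2 difference of the mouse means for each probe of the members that passed the filter, in 2 comparisons, with lines for 95% intervals from limma over all probes and none for Gab1, and filled points for the brightest probe of a gene. Both Irs1 intervals lie below 0 in Smn1deltaSKM minus WT, and 1 of 3 probes of Akt2 and 1 of 3 of Tbc1d1 point the other way from the rest of their gene.

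After AFS cells the means of all 8 tested members were above those of untreated Smn1deltaSKM, by 0.08 to 0.83 with a median of 0.73, yet none was called. Over all 16636 genes tested, limma called 0 genes (0%), with 3.2% at an unadjusted p under 0.05 and 0 of the 8 members among them. Of all genes 57.3% had the higher mean, with a median difference of 0.06. This comparison and the previous one share the Smn1deltaSKM mice, so a low Smn1deltaSKM mean sets both, and the opposite signs of the 6 members that were below WT are not separate evidence.

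Insr was 0.71 higher (95% interval -0.00 to 1.43, limma, adjusted p = 1.00) and Slc2a4 0.83 higher (95% interval -0.26 to 1.91, adjusted p = 1.00), and for these members both treated mice were above all 3 untreated mice. For Insr the treated mice were at 1.85 and 2.14, and for Slc2a4 at 5.43 and 5.72, the latter below both WT mice. The mice did not overlap for these 2 of the 8 tested members, beside 16.6% of all genes, and 12.4% of all genes had both treated mice above. The Slc2a4 values of the treated myofibers lay between 4.90 and 6.0, with a median of 5.59, across the gap between the untreated and WT medians. Irs1 was 0.73 higher (95% interval -0.25 to 1.71) with mice at 2.83 and 3.59, and its further probe was 0.31 higher, with both treated mice (1.44 and 1.65) within the untreated range.

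For Irs2, Hk2 and Tbc1d1 the difference rested on Smn1deltaSKM mouse 1. Irs2 was 0.74 higher in the treated mice (5.53 and 4.86) and Hk2 0.77 higher (4.41 and 3.70), and without that mouse the differences were 0.01 and -0.11. Without it Slc2a4 was 0.31 higher and Irs1 0.40 higher. Tbc1d1 differed by 0.73, with treated mice at 3.39 and 3.70, and by 0.10 without that mouse. Akt2 differed by 0.30, with treated mice at 5.43 and 5.92. Tbc1d4 differed by 0.08 and its sign turned with the scaling, to -0.0055 when arrays were centred on the median of the probes with a value on every array. Pik3r1, with the measured signal kept, was 1.01 higher (adjusted p = 1.00).

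Gab1 had the largest mean difference of the members after AFS cells, 2.02, and the least even one. Only 4 of the 7 treated myofibers had a value. The pair from mouse 1 stood at -0.02 and 1.86, and the pair from mouse 2 stood at -2.19 and -2.19. The values of mouse 1 were above every WT myofiber, and those of mouse 2 were within the Smn1deltaSKM range. The mouse 1 pair were myofibers 2 and 3, on a slide of their own and scanned on the first day, while the mouse 2 pair were scanned on the second day with most untreated myofibers. With the measured signal kept on every array the difference was 0.94.

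**Figure D3:**
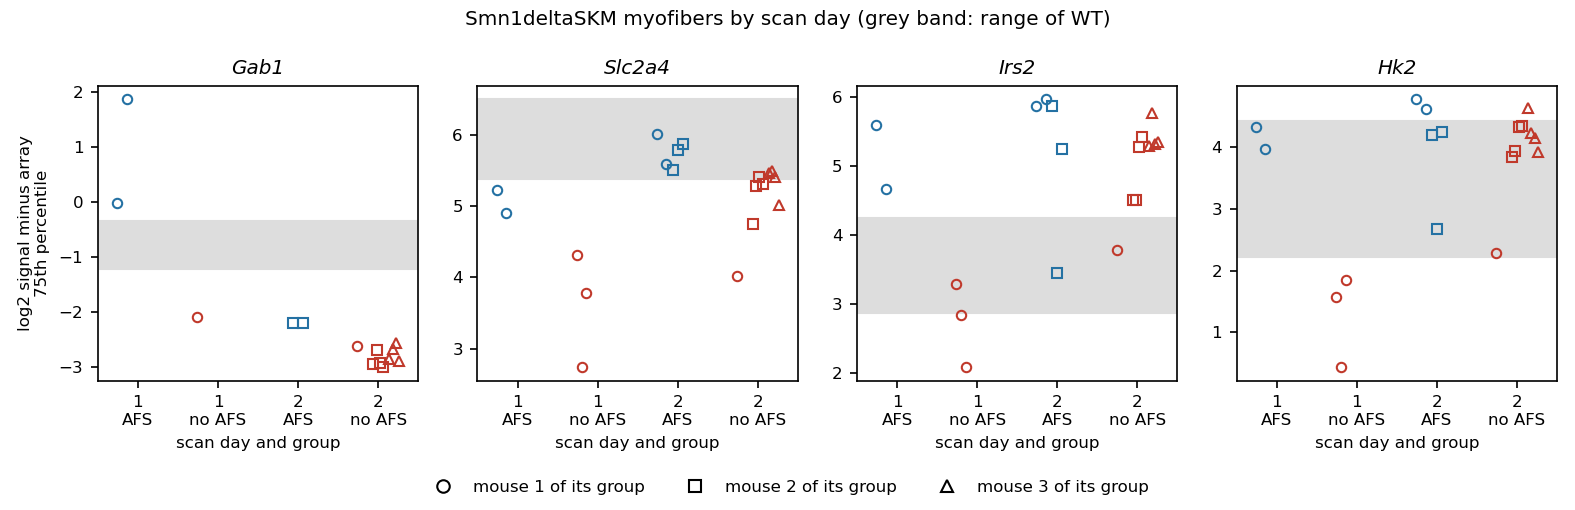
Level of Gab1, Slc2a4, Irs2 and Hk2 in each Smn1deltaSKM and Smn1deltaSKM+AFS myofiber with a value, on the log2 scale after subtraction of the array's 75th percentile, set out by scan day and treatment, with 1 point per myofiber, a shape per mouse and a grey band over the WT range. The untreated myofibers of mouse 1 lie lowest for Slc2a4 and Hk2. For Irs2 they lie lowest of the untreated myofibers, and treated myofiber 6, at 3.46, lies among them. The Gab1 values of the treated myofibers of the first day lie above the band.

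Both groups were scanned together on 2 days, so the difference can be read within each. On the first day, with untreated myofibers of mouse 1 alone, Irs2 differed by 2.39, Hk2 by 2.85, Tbc1d1 by 1.67 and Slc2a4 by 1.45. On the second day the same genes differed by 0.67, 0.65, 0.72 and 0.91. Insr differed by 0.28 and then 0.93 and Irs1 by 0.43 and then 1.08. Akt2 differed by -0.13 and then 0.25, and Tbc1d4 by -0.89 and then 0.10. The Gab1 difference was 3.01 on the first day, from 2 treated myofibers and 1 untreated one, and 0.56 on the second. The mice were not balanced over the days. On the second day the 3 untreated mice counted equally in the mean, and mouse 1 gave 1 myofiber. For Hk2 that myofiber stood at 2.28 and mice 2 and 3 at 4.11 and 4.22, beside a treated mean of 4.19. For Slc2a4 these values were 4.03, 5.19 and 5.34, beside a treated mean of 5.76.

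Set against WT, the treated mice had 5 of the 8 members higher in the mean and 3 lower. None was called, beside 7.81% of all genes in that comparison, and 0 of the 8 had an unadjusted p under 0.05, beside 29.7%. The mice did not overlap for 5 of the 8, a placing found for 68% of all genes. No member was called in either comparison that involves the treated mice.

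The members differed in how much of their spread lay between myofibers of 1 mouse and how much between mice. For Akt2 the standard deviation within a mouse was 0.41 and that between mice of a group 0.19, whereas for Hk2 these were 0.60 and 1.12 and for Irs2 0.65 and 0.94. Slc2a4 had 0.41 within and 0.64 between. For these 3 genes the spread between mice was the larger, and Smn1deltaSKM mouse 1 was the lowest of its group. None of its 4 myofibers shared a slide with mice 2 and 3, and 3 of them were also scanned on another day.

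With the mean of each mouse subtracted, Akt2 and Slc2a4 varied together over the 27 myofibers (Pearson r = 0.88). Values of 1 myofiber share the array, its scaling and its depth, and these correlations are descriptions. Tbc1d1 and Tbc1d4 gave r = 0.72 over 23 myofibers, Insr and Gab1 0.67 over 22, Tbc1d1 and Hk2 0.63 over 27, and Insr and Slc2a4 -0.35 over 27. Over the 36 pairs the median r was 0.10, and 24 were above 0. Without the subtraction Akt2 and Slc2a4 gave 0.54, Irs1 and Slc2a4 gave 0.80, and Tbc1d1 and Hk2 0.82, where the low values of mouse 1 enter. The number of probes with a value on the array, a measure of how well it detected transcripts, correlated with Gab1 at -0.64 over 22 myofibers, and over 27 with Hk2 at 0.49, Tbc1d1 at 0.45, Insr at -0.44 and Akt2 at -0.42. With the mouse means subtracted these were -0.06, 0.37, 0.32, -0.33 and -0.42.

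**Figure D4:**
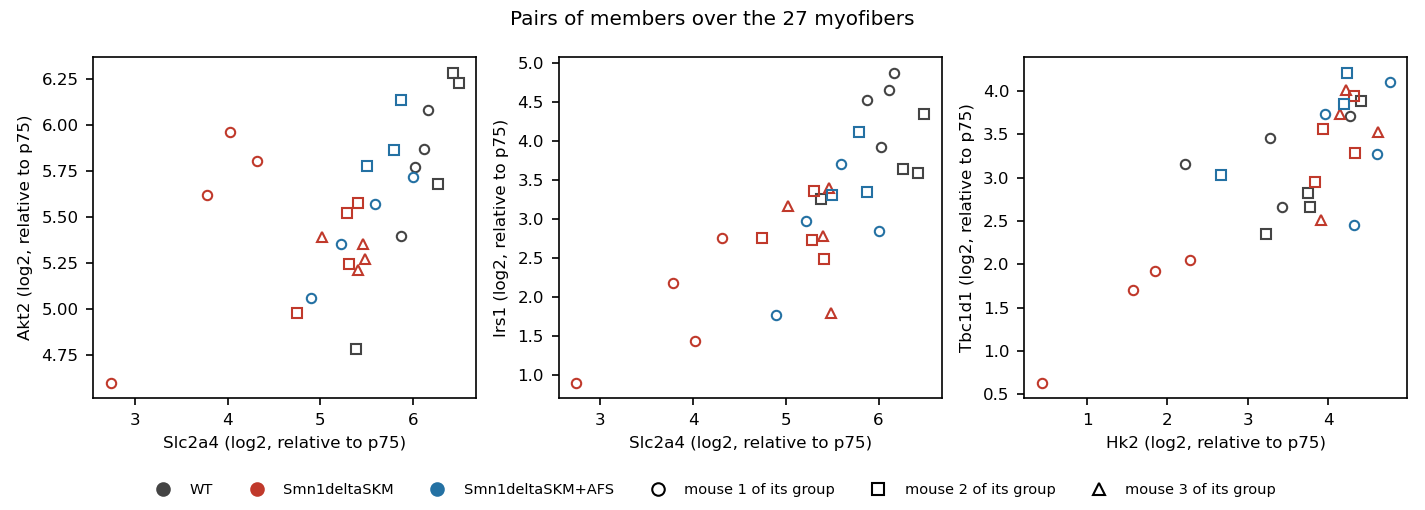
Levels of 3 pairs of members in the same myofiber, on the log2 scale after subtraction of the array's 75th percentile, with 1 point per myofiber coloured by group, a shape per mouse and no mouse mean subtracted. The myofibers of Smn1deltaSKM mouse 1 lie at the low end of Slc2a4 and of Hk2, and for Akt2 and Slc2a4 they lie apart from the others.

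Genes whose level followed Slc2a4 most closely over the myofibers were Slc16a3, which encodes a lactate exporter (r = 0.98 over 27 myofibers), Scrn2 (0.97 over 26), Asb16 (0.97 over 25), Exosc5 (0.97 over 27) and Cacna1s, the L-type calcium channel subunit of the triad (0.97 over 27), among 16635 genes compared. Those most like Gab1 were Them4 (0.95 over 18 myofibers), Ccdc125 (0.94 over 18), Rbm25 (0.93 over 19), St3gal6 (0.92 over 18) and Alad (0.92 over 22), among 16001 genes. These are highest values picked from many genes, and the points share mouse, slide and detection.

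The pathway around the members was read from a list of 86 further genes. The list was written with earlier results of these data known, so its counts are descriptions and not tests of the pathway. Of the 86 genes 70 passed the filter. In Smn1deltaSKM minus WT 24 of them were called, 34.3% beside 21.6% of all genes. Of these 5 were higher and 19 lower, where 7.67% and 13.9% of all genes were. The median difference was -0.69, beside -0.13 for all genes. Without either WT mouse none of these calls was made, and with slide as a random block 1 was. By role, 3 of 9 kinases of the PI3K and Akt step were called, all lower, as were 4 of 8 mTORC1 genes and 1 of 7 further adaptors. Of 18 genes of GLUT4 traffic 2 were called higher and 3 lower, and of 9 AMPK genes 1 higher and 3 lower. Negative regulators of the pathway gave 2 lower of 8. Of 5 Gsk3 and FoxO genes 1 was called higher and 2 lower, and of 5 other glucose transporters and hexokinases 1 higher and 1 lower.

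**Figure D5:**
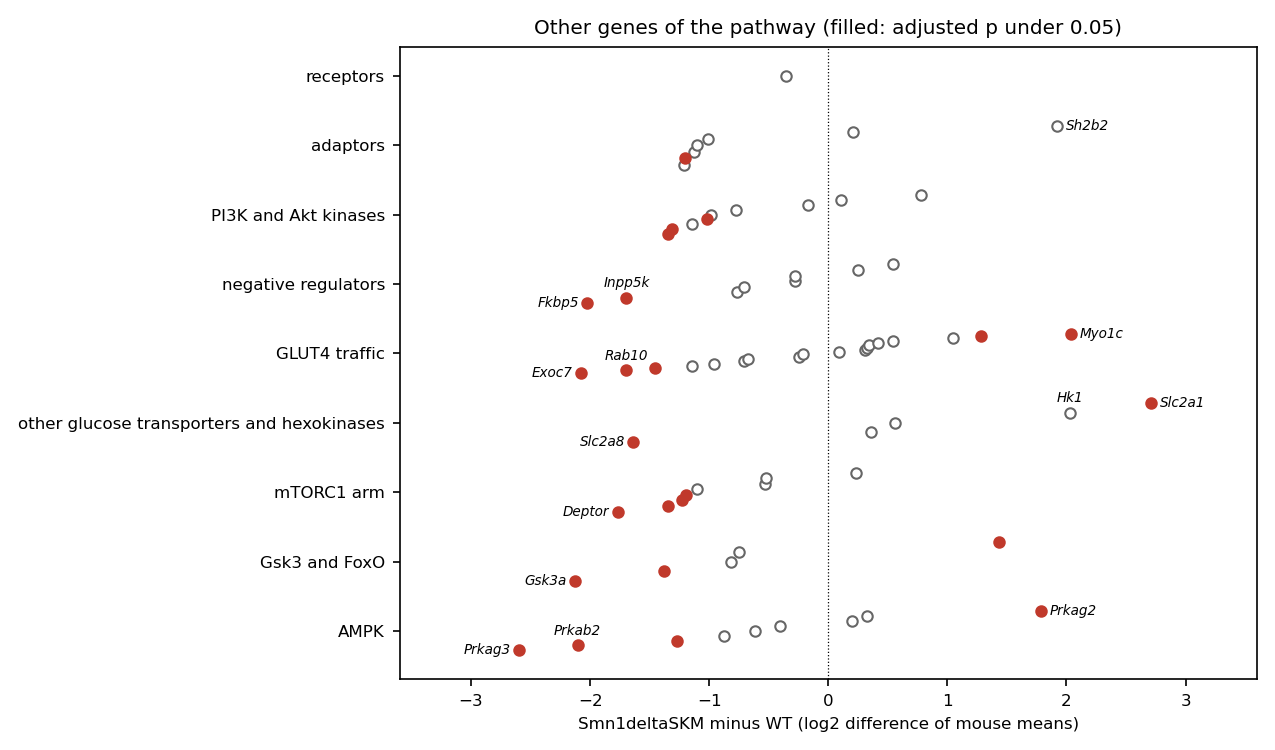
Log2 difference of Smn1deltaSKM minus WT for each tested gene of the pathway lists, grouped by role, with filled points for genes called at an adjusted p under 0.05. Most called genes lie below 0, and the 5 above include Slc2a1, Myo1c and Prkag2.

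The largest rise was that of Slc2a1, which encodes the insulin-independent transporter GLUT1, at 2.71 or 6.56-fold (standard error 0.52, limma, adjusted p = 0.0152). Myo1c, a motor protein of GLUT4 vesicles, rose by 2.04 (adjusted p = 0.0079) and Prkag2, a regulatory subunit of AMPK, by 1.79 (adjusted p = 0.00822). Among the other AMPK subunits Prkag3, which is typical of fast muscle, fell by 2.60 (standard error 0.30, limma, adjusted p = 0.00686) and Prkab2 by 2.11 (adjusted p = 0.0269). Gsk3a, the kinase that restrains glycogen synthesis until Akt phosphorylates it, fell by 2.13 (adjusted p = 0.00686). Exoc7, of the exocyst that tethers GLUT4 vesicles, fell by 2.07 (adjusted p = 0.0120) and Rab10, a target of Tbc1d4 on these vesicles, by 1.70 (adjusted p = 0.0170). Brakes on the pathway fell as well. Fkbp5, a co-chaperone that favours dephosphorylation of Akt, fell by 2.02 (adjusted p = 0.0147), Inpp5k, a phosphoinositide phosphatase, fell by 1.69 (adjusted p = 0.0193) and Deptor, an inhibitor of mTOR listed as Depdc6 on the array, fell by 1.77 (adjusted p = 0.0455), a call made in 6 of 21 alternatives. Slc2a8, a transporter of intracellular membranes, fell by 1.64 (adjusted p = 0.0129). Pik3r2, the largest difference among the PI3K and Akt genes, fell by 1.35 (adjusted p = 0.0188). The largest differences of the adaptor and receptor lists, Sh2b2 at 1.92 and Igf1r at -0.36, were not called (adjusted p = 0.266 and 0.541).

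After AFS cells none of these genes was called, and the median difference of the 67 tested pathway genes was 0.09. Slc2a1 differed by -0.57, Prkab2 by 0.85, Inpp5k by 0.57 and Rab10 by 0.45. The others of the 12 listed above, Prkag3, Gsk3a, Exoc7, Myo1c, Fkbp5, Prkag2, Deptor and Slc2a8, lay between -0.34 and 0.24 of untreated Smn1deltaSKM.

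GLUT4 and hexokinase levels are known to differ between fiber types. Myh4, the fastest myosin, was bright in every myofiber, between 7.05 and 7.94 in WT, 6.67 and 7.40 in Smn1deltaSKM and 6.01 and 7.49 in Smn1deltaSKM+AFS. Myh1, the myosin of a fast type that is more oxidative, had medians of 1.61, 3.47 and 6.83. It was higher by 2.20 in Smn1deltaSKM than in WT (4.60-fold, standard error 0.51, limma, adjusted p = 0.0230) and by 3.45 in Smn1deltaSKM+AFS than in WT (adjusted p = 0.0184). Myh2 had no value in WT and a value in 2 myofibers of each of the other groups. Myh1 thus rose in both comparisons with WT. In Smn1deltaSKM+AFS it was 1.25 higher in the mean than in Smn1deltaSKM but was not called. The part of fiber type in the results was not tested.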

How the data were processed

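Single myofibers were isolated from collagenase-digested tibialis anterior muscle, and their RNA was amplified (18 cycles) and read on 27 1-colour Agilent mouse arrays. The authors deposited the scanner intensity of each spot from Feature Extraction 10.7.3.1 (background-subtracted, detrended within the array and not scaled between arrays, with probe positions on mm9) and a table of linear intensity values made equal in distribution between arrays. Here the deposited processed intensity was put on the log2 scale relative to the 75th percentile of the array. Spots that were not found, not well above background or outliers gave no value, repeated spots were averaged, and a probe needed a value on 75% or more of the arrays compared. The brightest probe stood for a gene. Myofibers of a mouse were averaged, and the 7 mouse means of the 3 groups were fitted with limma 3.58.1 in R 4.3.3 with Benjamini-Hochberg adjustment over all genes. The filter left 17049 genes for Smn1deltaSKM minus WT and 16636 for the comparisons with Smn1deltaSKM+AFS. The number of mice limits the precision, and amplification of so little RNA adds spread to dim probes. Mice are numbered in the labels, but different groups hold different animals, so the numbers do not pair them. The steps were tested on simulated data.

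The members and lists were chosen with earlier results of these data known. Genes named were all members with every probe that passed, Smn1, the 12 called pathway genes with the largest difference and the largest of each list, and the 5 genes most like Gab1 and Slc2a4. Alternatives were other background corrections, scalings and filters, the deposited value table, the unit of replication, slide, scan day and mouse number as blocks, and mice or myofibers left out. A count of motifs in the proteins was not run, since no protein table was used here.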

Additional observations from a re-analysis of the deposited data

Results flagged for a closer look

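Of 20 groups of myofibers tested (a member in a group), 2 held a myofiber far from the rest of its group, and chance alone marks about 1 in 20. Insr lay at 0.828 in WT myofiber 7, of mouse 2, while the nearest WT myofiber was at 1.78, a gap of 0.581 of the whole range of the 8 myofibers. Hk2 lay at 2.67 in Smn1deltaSKM+AFS myofiber 6, while the nearest treated myofiber was at 3.96, a gap of 0.615 of the range of the 7. In both cases the mouse mean moves with that myofiber, and in the case of Insr it brings WT mouse 2 down to the level of Smn1deltaSKM mouse 3.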

How the results depend on the processing

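In Smn1deltaSKM minus WT 1 member was called. None was with normexp, quantile normalization, median centring, the authors' values or slide as a random block, 2 were with mouse as a random block or without myofibers 1 to 3 of Smn1deltaSKM mouse 1, 3 were with the measured signal kept and 4 were with myofibers as replicates. Leaving out a mouse gave 0 to 3. Of the pathway genes 24 were called, 40 with myofibers as replicates, 1 with slide as a random block, and 0 to 35 with a mouse left out. Of all genes 3678 were called, 83 with slide as a random block, 9247 with myofibers as replicates, 6007 with mouse as a random block, 4882 with the measured signal kept, 4802 without those 3 myofibers, and 0 (without either WT mouse) to 7462 (without Smn1deltaSKM mouse 1) with a mouse left out. In Smn1deltaSKM+AFS minus WT 0 members were called, 3 with myofibers as replicates, 1 with mouse as a random block and 0 to 2 with a mouse left out, beside 1299 of all genes, 72 with slide as a random block, 6932 with myofibers as replicates, 3392 with mouse as a random block, 719 with quantile normalization, 796 with the authors' values, 741 without a filter, 850 with values on every array and 0 to 4883 with a mouse left out. In Smn1deltaSKM+AFS minus Smn1deltaSKM 0 members were called under every alternative, and 20 genes of all with myofibers as replicates.

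With mouse number as a replicate block 2 members (Irs1 and Slc2a4) and 2229 of all genes were called in Smn1deltaSKM minus WT, and Tbc1d4 differed by -0.19 in Smn1deltaSKM+AFS minus Smn1deltaSKM. Deviations of same-numbered mice correlated at 0.15 and 0.04 between WT and Smn1deltaSKM and at 0.31 and 0.19 between Smn1deltaSKM and Smn1deltaSKM+AFS.

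Signs turned for Hk2 in Smn1deltaSKM minus WT (0.030 with quantile normalization, 0.033 with the authors' values, -0.72 to 0.62 with a mouse left out), Tbc1d1 (0.30 with the mean of its probes, -0.58 to 0.35 with a mouse left out) and Igf1r (-0.71 to 0.0031 with a mouse left out). In Smn1deltaSKM+AFS minus Smn1deltaSKM they turned for Tbc1d4 (-0.0055 with median centring, -0.87 with slide as a random block, -0.19 with scan day as a block, -0.19 to 0.42 with a mouse left out), Akt2 (-0.12 with slide as a random block) and Hk2 (-0.11 to 1.23 with a mouse left out, the lowest without Smn1deltaSKM mouse 1). Gab1 differed there by 0.47 without treated mouse 1 and by 3.58 without treated mouse 2. No cause was tested. Median centring moved the median of all genes by 0.21 in Smn1deltaSKM minus WT and by 0.12 in Smn1deltaSKM+AFS minus WT, and the higher share of the calls from 35.5% to 56.2% and from 44.5% to 58.3%. Leaving out WT myofiber 8 was chosen after seeing the data. Scan day could not be fitted as a block against WT. The signal of Pik3r1 and Gab1 over background limits their values, which 16 and 22 of the 27 myofibers had.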
